A study of Mus musculus with 2 samples.

Results

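A set of 7 microRNA genes of connective tissue cells was followed in the mouse liver at embryonic day 13.5: Mir143, Mir145a, Mir140, Mir199a-1, Mir199a-2, Mir199b and Mir214. They were taken by name from the 1973 microRNA genes counted, and all 7 had a row in both tables. Small RNA was sequenced from 2 libraries of 1 group, numbered in the labels as biological replicates 1 and 2. Both were made from untreated, healthy liver of the strain B6NCrl, with male and female embryos pooled, and no other genotype, treatment or age was included. The labels do not say how many embryos entered each pool, and the p-values below set these 2 libraries against counting error alone, with no measure of the spread between animals.

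MicroRNAs are cut from hairpin precursors, of which the 5′ arm (5p) and the 3′ arm (3p) can each become a mature microRNA. Bases 2 to 8 of the mature form, the seed, choose the messages it represses. Hairpins that lie close together on a strand are often cut from 1 primary transcript and can still accumulate to different levels. In the liver, mesenchymal cells include the vitamin A-storing stellate cells, portal fibroblasts and vascular smooth muscle. The miR-143 and miR-145 pair is known for its role in smooth muscle, where it favours the contractile state. The miR-199a and miR-214 pair, cut from the non-coding transcript Dnm3os, is known in skeletal development and in activated stellate cells, and miR-140 is best known from cartilage.

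The mature sequences are shown first because they decide which reads can be placed at a gene. The RefSeq (GRCm38.p6) sequences used here lacked the arms of Mir143 and Mir145a, miR-140-5p and miR-199b-5p, so the seeds of these arms were not compared. They held 8 mature arms for 5 of the 7 genes, given here 5′ to 3′ with the seed in capitals.
miR-199a-5p (Mir199a-1 and Mir199a-2): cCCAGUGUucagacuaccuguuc
miR-199a-3p (Mir199a-1 and Mir199a-2): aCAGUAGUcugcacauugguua
miR-199b-3p (Mir199b): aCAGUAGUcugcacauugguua
miR-214-5p (Mir214): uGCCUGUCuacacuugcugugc
miR-214-3p (Mir214): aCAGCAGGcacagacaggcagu
miR-140-3p (Mir140): uACCACAGgguagaaccacgg
The arms miR-199a-3p and miR-199b-3p are the same 22 bases and form 1 seed group. Among the arms listed here, each of the other seeds belongs to 1 microRNA alone. The Mir199b hairpin also holds the miR-199a-5p seed unchanged, but its own 5p arm, miR-199b-5p, was not among the arms listed. Outside the 7 genes, RefSeq lists the miR-214-3p seed also for miR-761 and the miR-140-3p seed also for miR-497b. Mir761 had no count in either library, where a count of 0 allows a level of up to 1.15 and 0.700 CPM (counts scaled to a library total of 1000000). Mir497b had 1 and 4 counts, so among the genes listed with either seed, Mir214 and Mir140 held nearly all counts. A gene row joins both arms, so these counts also hold reads of the 5′ arms, which carry other seeds.

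The 3 miR-199 hairpins are printed because they carry the main limit on these counts. Capitals mark every base that lies in a word of 20 bases also found in a microRNA hairpin at another locus of GENCODE M21.
Mir199a-1: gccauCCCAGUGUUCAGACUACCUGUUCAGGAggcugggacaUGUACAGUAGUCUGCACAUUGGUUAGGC
Mir199a-2: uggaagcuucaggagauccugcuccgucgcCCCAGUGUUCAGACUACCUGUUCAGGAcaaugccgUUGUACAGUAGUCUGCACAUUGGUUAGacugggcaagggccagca
Mir199b: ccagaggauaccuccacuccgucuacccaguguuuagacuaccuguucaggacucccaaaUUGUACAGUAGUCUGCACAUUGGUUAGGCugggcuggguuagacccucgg
Both arms of Mir199a-1 and of Mir199a-2 lie wholly inside such words. In Mir199b this holds for the 3′ arm only, since its hairpin matches miR-199a-5p with 1 substitution, C10U (position counted from the 5′ end of miR-199a-5p, with the base of miR-199a-5p first). Beyond the end of miR-199a-5p the hairpins of Mir199a-1 and Mir199a-2 stay identical for 4 bases, and beyond the end of miR-199a-3p for 1 base. A read that holds only shared bases matches several loci, and the deposited tables give no gene to reads with several matches. Such reads made up 36.7% of replicate 1 and 32.0% of replicate 2, and their split over microRNAs was not analysed here. The counts of the 3 miR-199 genes are therefore uncertain and set no upper limit on these microRNAs. The hairpins of Mir143, Mir145a, Mir140 and Mir214 share no such word.

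**Figure D1:**
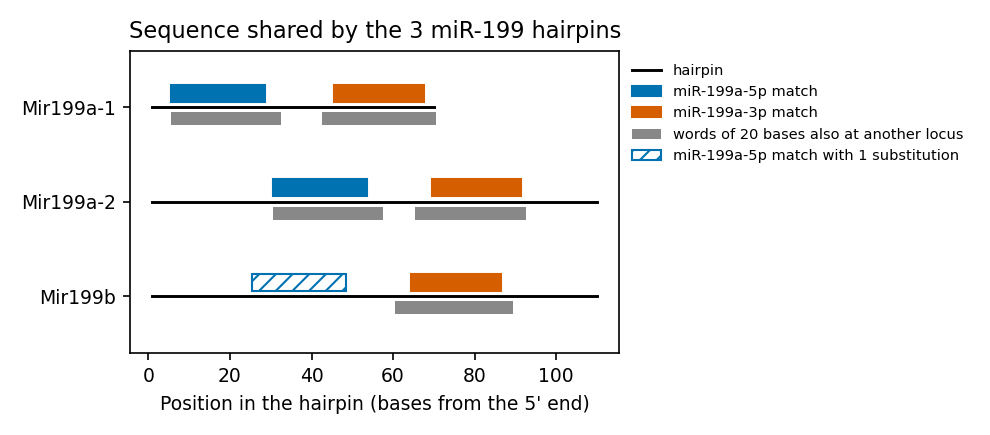
Map of the 3 miR-199 hairpins, with the position in bases from the 5′ end on the x axis and 1 hairpin per row. Coloured boxes above each line show the match of miR-199a-5p and miR-199a-3p, a hatched box a match with 1 substitution, and grey boxes below show words of 20 bases that also occur at another locus, which cover both arms in Mir199a-1 and Mir199a-2 and only the 3′ arm in Mir199b.

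Sense-strand counts over all microRNA genes came to 2607403 and 4286742, the totals behind all CPM values. Detection meant a minimum of 10 counts per library, which 367 of 1973 genes met. Hepatocyte-specific Mir122 led all genes at 79994 ± 213 CPM (SD, n = 2), so the marker of the labelled tissue was present. By summed share of counts (SD, n = 2), hepatocyte markers held 8.50% ± 0.0574, endothelial markers 5.67% ± 0.210 and erythroid markers 2.55% ± 1.06. Mir126a alone gave 56024 of the 56721 CPM summed over the endothelial markers, and Mir122 79994 of the 84981 CPM of the hepatocyte markers. Each of these 2 shares is thus close to the level of 1 gene. On the mean, Mir451a gave 18546 of the 25512 CPM of the erythroid markers. Leukocyte markers held 1.19% ± 0.0503, epithelial markers 0.256% ± 0.0313 and striated muscle markers 0.105% ± 0.0262. Of the 11923 CPM summed over the leukocyte markers, Mir223 gave 10092. Mir142, a listed leukocyte marker, has no row of its own, and with both strands counted, which adds the reads opposite Mir142b, the leukocyte share was 5.20% ± 0.0623.

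The 7 mesenchymal genes together held 65284 counts in replicate 1 and 103092 in replicate 2, or 2.45% ± 0.0699 of all counts (SD, n = 2), and 6 of the 7 were detected. As the mean of the shares in the 2 libraries, Mir143 made up 73.5% of the summed counts. Mir140 made up 16.2% and Mir214 8.25%. Of the rest, Mir145a made up 1.17%, Mir199b 0.820%, Mir199a-2 0.0910% and Mir199a-1 0.00730%. No count of the 7 genes lay on the opposite strand in either library. In bulk tissue, fewer cells of a type and less RNA per cell cannot be told apart.

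Mir143, a microRNA of contractile and stromal cells, reached 18537 CPM in replicate 1 and 17525 CPM in replicate 2, on 48334 and 75125 counts. It was gene 18 of 1973 by mean sense-strand level, an order that leaves out unassigned and opposite-strand reads, as do the places given below. Its neighbours in that order were Mir93 above and Mir127 below, and each of them lay above Mir143 in 1 library and below it in the other, so these 3 could not be ranked. Mir143 (ENSMUSG00000065445) lies on the minus strand of chromosome 18 at 61649196 to 61649258 (mm10), a position taken from GENCODE M21. It overlaps no other annotated gene and lies 366 bases downstream of Carmn, the non-coding RNA gene of this locus.

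Mir145a, the partner of Mir143, stood at 290 CPM in replicate 1 and 285 CPM in replicate 2, on 755 and 1220 counts. It was gene 149 by mean level, between Mir183 and Mir195a. Mir183 lay above it in both libraries, and the order with Mir195a turned between them. Mir145a (ENSMUSG00000065592) lies at 61647825 to 61647894 on the same strand, 1301 bases beyond Mir143. Mir145b, a separate locus of a similar name, had no count in either library.

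Mir140, whose microRNA is needed for normal cartilage growth, stood at 4054 and 3899 CPM on 10571 and 16716 counts, and was gene 54. Mir139, just above it, kept its place in both libraries, and Mir100, just below it on the mean, lay above it in replicate 1. The hairpin (ENSMUSG00000065439) is on the plus strand of chromosome 8 at 107551244 to 107551313, inside the ubiquitin ligase gene Wwp2. It is intronic in all but 1 of the 4 Wwp2 transcripts that span it.

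Mir214, a fibrosis-linked microRNA, stood at 1923 and 2123 CPM on 5015 and 9099 counts, and was gene 76. Mir532, next above on the mean, changed order with it between the libraries, and Mir300 lay below it in both. The hairpin (ENSMUSG00000065516) is on the plus strand of chromosome 1 at 162223368 to 162223477. It is exonic in both Dnm3os transcripts that span it and lies in an intron of Dnm3 on the opposite strand.

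The 3 miR-199 genes had the lowest detected levels and the only level below the detection limit. Mir199b stood at 213 and 190 CPM on 556 and 813 counts, and was gene 168, between Mir449a and Mir770. Mir199a-2 stood at 17.6 and 26.8 CPM on 46 and 115 counts, and was gene 260, between Mir7b and Mir450-1. Mir199a-1 had 7 and 4 counts, which gave 2.68 CPM (95% exact Poisson interval 1.08 to 5.53) and 0.933 CPM (0.254 to 2.39), intervals that overlap and cover counting error only. Thus the gene with 1 arm outside the shared words was above the genes with none, by 12.1-fold and 7.07-fold over Mir199a-2 and by 79.4-fold and 203-fold over Mir199a-1. How much of these gaps comes from unassigned reads was not tested. The 3 genes summed to 225 ± 11.4 CPM (SD, n = 2).

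Each miR-199 gene lies in an intron of a dynamin gene, on the strand opposite to it. Mir199a-1 (ENSMUSG00000065547) is on the minus strand of chromosome 9 at 21496495 to 21496564, within Dnm2. Mir199a-2 (ENSMUSG00000070126) is on the plus strand of chromosome 1 at 162217814 to 162217923, within Dnm3, and is also exonic in 2 of the 3 Dnm3os transcripts that span it. Mir199b (ENSMUSG00000092807) is on the plus strand of chromosome 2 at 32318460 to 32318569, within Dnm1. The hairpins of Mir199a-1 and Mir199a-2 were identical at 86.8% of 68 aligned bases, those of Mir199a-1 and Mir199b at 88.2% of 68, and those of Mir199a-2 and Mir199b at 86.7% of 98.

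Among all 1894 counted genes with a hairpin sequence, 929 had a 20-base word in common with a second locus, and 8.72% of these were detected. Of the 965 genes that shared none, 29.6% were detected. These groups hold different microRNAs, and the difference is given as a description.

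**Figure D2:**
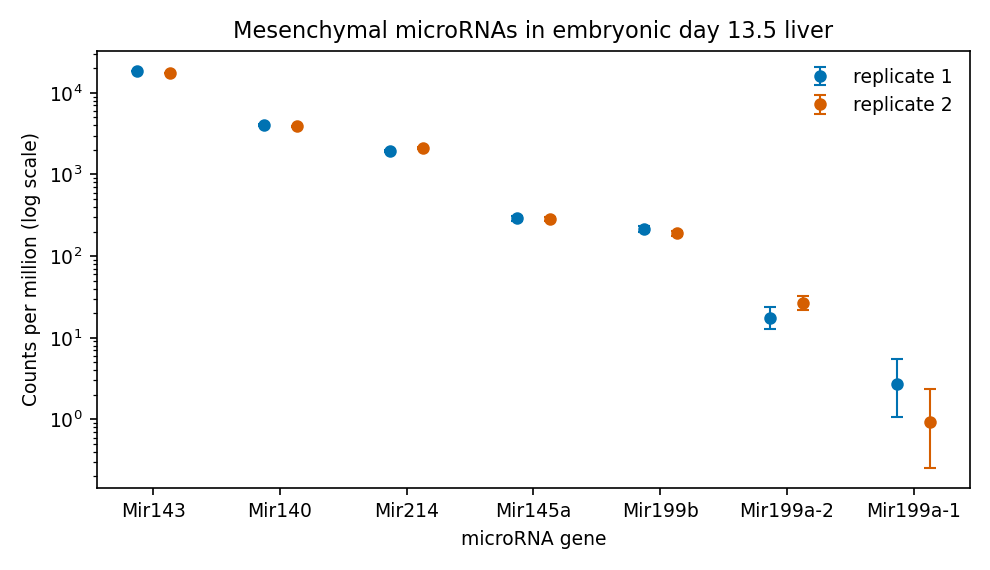
Level of each mesenchymal microRNA gene in CPM on a log axis, with 1 point per library and bars for the 95% exact Poisson interval, which covers counting error only. The genes keep the same order in both libraries, from Mir143 at a mean of 18031 CPM to Mir199a-1 at 1.81 CPM, and the span is wide beside the gap between the libraries.

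The order of the 7 genes was the same in both libraries: Mir143, Mir140, Mir214, Mir145a, Mir199b, Mir199a-2, Mir199a-1. Mir143 exceeded Mir140 by 4.57-fold in replicate 1 and 4.49-fold in replicate 2, and Mir140 exceeded Mir214 by 2.11-fold and 1.84-fold. The closest step was that from Mir145a to Mir199b, at 1.36-fold and 1.50-fold. In log2 it was 0.51 ± 0.10 (SD, n = 2), and both counting intervals had a lower bound above zero. Reads of only shared bases get no gene, so the count of Mir199b can lack reads of its shared arm. How many are missing was not tested, and the true order of Mir145a and Mir199b is uncertain. Between unlike genes the 12 neighbours by mean level are less firm: 4 kept their side of the mesenchymal gene in both libraries and 8 did not. A read of a mature microRNA is counted once whatever the length of its hairpin, so levels were compared in CPM. Levels per base of hairpin gave the same order of the 7 genes.

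**Figure D3:**
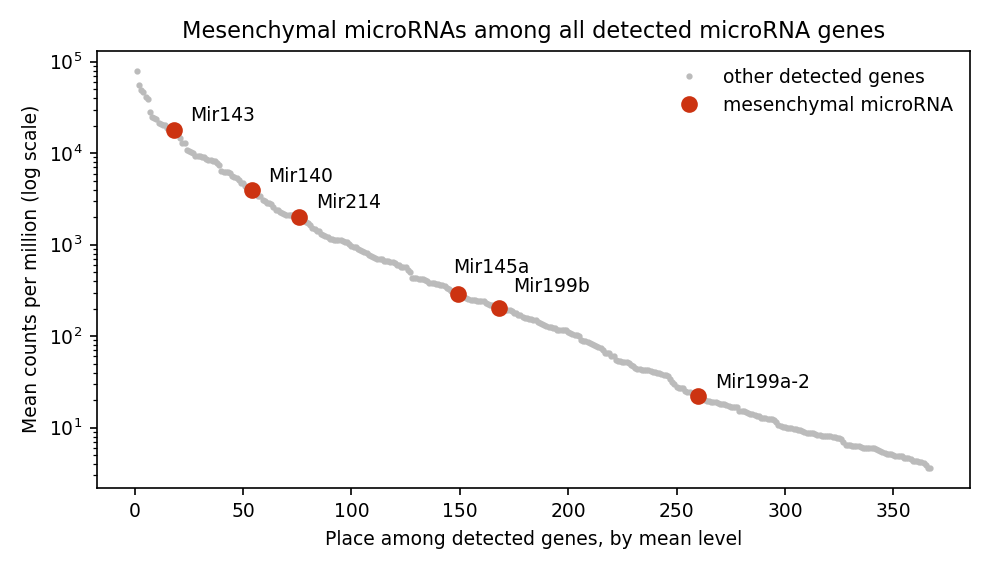
Mean CPM (log axis) of the 367 detected genes, placed from highest to lowest on the x axis. The 6 detected mesenchymal genes, in red, range from place 18 (Mir143) to place 260 (Mir199a-2).

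Genes cut from a shared transcript were then compared within each library, where the ratio of 2 counts does not depend on scaling. Mir143 and Mir145a are known to share a primary transcript, although M21 annotates no gene that spans both. Mir143 exceeded Mir145a by 64.0-fold in replicate 1 and 61.6-fold in replicate 2. The log2 ratios were 6.00 (95% exact counting interval 5.90 to 6.11) and 5.94 (5.86 to 6.03), so the intervals overlapped. Mir145a thus made up 1.54% and 1.60% of the counts of the pair. Unlike the miR-199 genes, neither hairpin shares a word of 20 bases with a microRNA hairpin at another locus. Shorter or inexact matches and other kinds of loci were not searched. Whether unassigned reads alter this ratio was therefore not tested.

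Mir214 and Mir199a-2 lie 5444 bases apart in Dnm3os. Mir214 exceeded Mir199a-2 by 109-fold in replicate 1 and 79.1-fold in replicate 2. The log2 ratios were 6.77 (95% exact counting interval 6.35 to 7.22) and 6.31 (6.04 to 6.58), and the intervals overlapped. The ratio is uncertain, since both arms of Mir199a-2 are shared with Mir199a-1. Against the sum of the 3 miR-199 genes, which belong to 3 transcripts, the level of Mir214 in CPM was 8.23-fold and 9.76-fold higher.

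Both ratios were set beside those of all 114 pairs of detected microRNA genes that are neighbours on a strand within 10 kb. The median absolute log2 ratio of these pairs was 3.30, a 9.83-fold difference. It was larger than that of Mir143 and Mir145a in 20 of 114 pairs and larger than that of Mir214 and Mir199a-2 in 14. Among the 64 pairs in which neither gene shares a word, the median was 2.66, and 5 pairs had a larger ratio than Mir143 and Mir145a. Among the 50 pairs with a shared word it was 3.91, and 10 had a larger ratio than Mir214 and Mir199a-2. Between the libraries the ratio of Mir143 to Mir145a moved by -0.06 in log2, and 97 of the 114 pairs moved more. The ratio of Mir214 to Mir199a-2 moved by -0.46, and 21 pairs moved more. No test was made, since pairs share genes and transcripts.

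**Figure D4:**
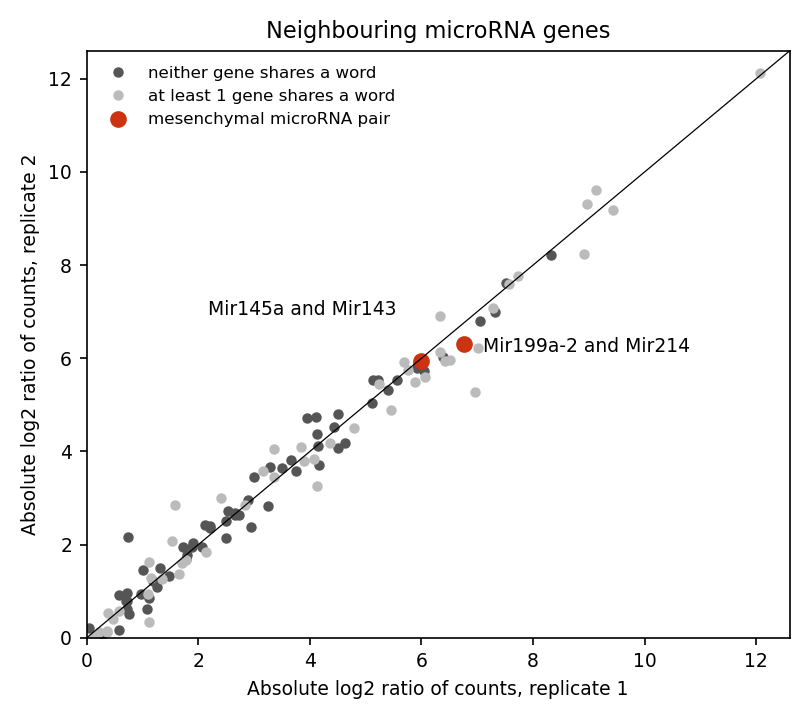
Absolute log2 ratio of counts for 114 pairs of neighbouring microRNA genes, replicate 1 on the x axis and replicate 2 on the y axis, with the line of equality. Dark points are pairs in which neither gene shares a word of 20 bases with another locus, pale points the other pairs. Mir145a and Mir143 sit on the line near 6, and Mir199a-2 and Mir214 lie slightly below it.

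Replicate 2 was set against replicate 1 for every gene by an exact binomial test on counts (two-sided), adjusted by Benjamini-Hochberg over the 711 genes with a count. This test compares 2 libraries and no conditions. At an adjusted p under 0.05 it called 20.1% of all genes tested and 3 of the 7 mesenchymal genes. In replicate 2, 61 genes (8.58%) were higher, among them 1 mesenchymal gene, and 82 (11.5%) were lower, among them 2. With edgeR's TMM library sizes the split over all genes was 72 higher and 63 lower, and 2 of the 7 genes were called. Of 185 genes with at least 1000 counts in both libraries together, 58.4% were called.

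Mir143 was lower in replicate 2 by a log2 difference of -0.08 (95% exact counting interval -0.10 to -0.06, adjusted p = 1.60e-20, exact binomial test), or 1.06-fold. Mir214 was higher by 0.14 (0.09 to 0.19, adjusted p = 2.03e-07, exact binomial test), or 1.10-fold. Mir140 was lower by a log2 difference of -0.06 (-0.09 to -0.02, adjusted p = 0.0105, exact binomial test), a call lost with TMM library sizes (adjusted p = 0.379) and with DESeq2 size factors (adjusted p = 0.311). The median absolute log2 difference over all 367 detected genes was 0.17, or 1.13-fold. All 3 called genes lay below it, on 14114 to 123459 counts over both libraries.

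The other 4 genes were not called. For Mir145a the log2 difference was -0.02 (adjusted p = 0.888, exact binomial test) and for Mir199b it was -0.17 (adjusted p = 0.134, exact binomial test). Mir199a-2 differed by 0.60 with a wide interval of 0.10 to 1.13 (adjusted p = 0.0675, exact binomial test), and it passed when only the 367 detected genes were tested (adjusted p = 0.0370). Mir199a-1, on 7 and 4 counts, differed by -1.52 with an interval of -3.74 to 0.45, so no difference was detectable at this depth. Of the 6 detected genes, 5 differed by less than the median of all detected genes and Mir199a-2 by more. The summed erythroid markers, 17989 CPM in replicate 1 and 33035 CPM in replicate 2, moved by more than any of the 6 detected mesenchymal genes, with 2 of 3 called, Mir451a higher and Mir144 lower. That rise came from Mir451a, since the sum without it was 7239 CPM in replicate 1 and 6692 CPM in replicate 2. Of the epithelial markers 4 of 5 were called, all 4 higher in replicate 2. Of the striated muscle markers 5 of 6 were called, 2 higher and 3 lower. Over all 711 genes tested 20.1% were called, and 58.4% of the 185 with at least 1000 counts in both libraries together. These lists are short and depth was not matched. The part of the erythroid, epithelial and striated muscle markers in the differences of the mesenchymal genes was not tested.

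**Figure D5:**
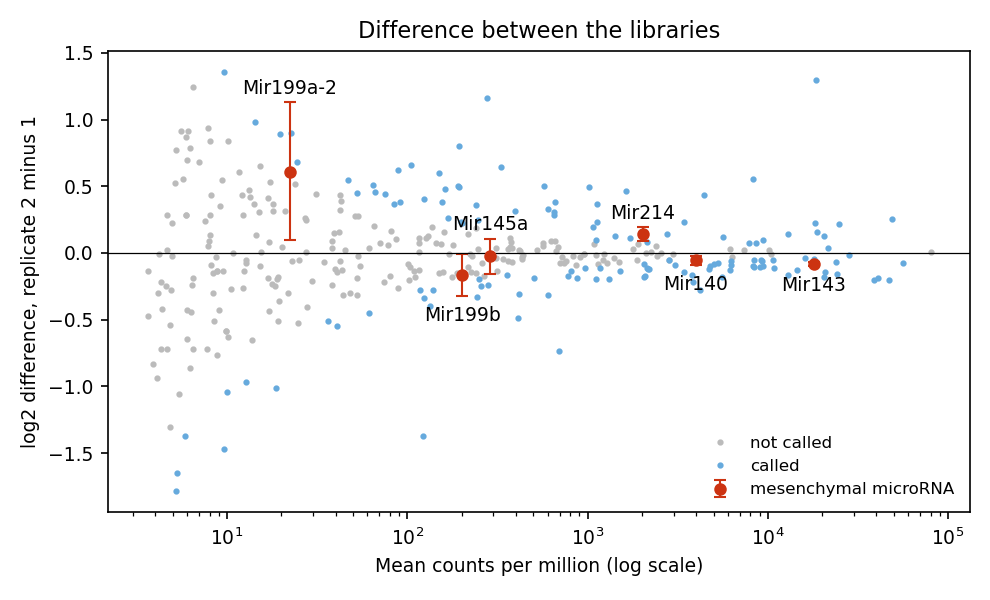
Log2 difference between the libraries (replicate 2 minus replicate 1, y axis) against mean CPM (log x axis) for the 367 detected genes, with called genes in blue and others in grey. Red points are the 6 detected mesenchymal genes with 95% exact counting intervals. Mir143, Mir140 and Mir214 lie close to zero with narrow intervals, and Mir199a-2 lies at 0.60 with a wide one.

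A list of other microRNAs linked to connective tissue, matrix and stellate cells held 7.29% ± 0.196 of counts (SD, n = 2), with 20 of 27 counted genes detected. Its highest genes were Mir322, part of a growth-linked cluster, at 28333 ± 252 CPM and Mir21a, which rises in fibrotic tissue, at 23818 ± 796 CPM. Mir22 and Mir100 followed at 10686 ± 283 and 3858 ± 416 CPM. Mir143 lay between Mir21a and Mir22. Between the libraries 8 of the 24 list genes with a count were called, all 8 lower in replicate 2, against 11.5% called lower among all genes. Depth was not matched in this comparison, and 58.4% of genes with at least 1000 counts in both libraries together were called in either direction. With TMM library sizes 6 were called, 1 higher and 5 lower. The median log2 difference of its detected genes was -0.06, against -0.03 over all detected genes. Of the 27 genes, 12 have a word in common with a second locus, and Mir145b, Mir133a-1 and Mir133a-2, named after their values were seen, had no count.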

How the data were processed

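Small RNA under 30 bases from 2 embryonic liver libraries was measured. The authors deposited raw counts per gene on mm10 with GENCODE M4, per the labels and file lists. The name of the aligner is not given in the sources used here, nor that of the counter. The tables held counts on the strand of the gene, on the opposite strand and on both. The first were used, and rows for unassigned reads (unmapped, mapped to several places, outside the counted genes) were left out. The tables held 7671547 reads in replicate 1 and 12554684 in replicate 2, of which 5.72% and 5.64% fell outside the counted genes. A gene row joins both arms of a hairpin.

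Genes were named by identifier from GENCODE M21 (same build, 1894 of 1973 matched). Mir143 and Mir145a carry a later identifier version there, so their hairpin bounds may differ from those counted. Mature sequences came from RefSeq (GRCm38.p6). CPM is counts divided by the library total, times 1000000. Limits for a count of 0 use 3 counts. All intervals cover counting error only, since reads without molecular identifiers are not independent molecules, and capture differs between sequences, so ratios of counts are not ratios of molecules. The exact binomial test sets a difference against counting error alone. It was checked on simulated Poisson counts, which hold counting error only, so the check does not cover variation between libraries or animals.

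The members and lists were chosen with earlier results of these data known. Named genes were the 7 genes, the genes next above and below each detected one by mean level, genes that share a seed, genes opposite them, and the 4 highest of each list. Of the lists of other cell types, only Mir122, Mir126a, Mir451a and Mir223 are described by their levels. Mir126a, Mir451a, Mir144, Mir223 and genes with opposite-strand counts were named after their values were seen. The 2 libraries allow no exact two-sided p under 0.5 for a level. Alternatives were both strands, edgeR 4.0.16 TMM and DESeq2 1.42.0 scaling, other detection limits, levels per base, totals without Mir451a, and each library alone. For levels of single genes and for 2 marker lists, alternatives were chosen after seeing the data. Python 3.11.15, scipy 1.17.1 and Biopython 1.88 were used.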

Additional observations from a re-analysis of the deposited data

Results flagged for a closer look

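Counts on the strand opposite a counted gene were not used in the comparisons. None lay at the 7 mesenchymal genes. The row of Mir497b, a gene not on the connective tissue list, had 796 opposite-strand counts in replicate 1 and 1264 in replicate 2. These lay above the limit of 3 that a count of 0 allows, against 1 and 4 on the strand of Mir497b. M21 places Mir497, a gene of the connective tissue list with no row of its own, on the opposite strand at chromosome 11, 70234717 to 70234800. Opposite Mir708, which is on that list, there were 5 and 21 counts, against 637 and 1069 on its own strand. Among the marker lists, the row of Mir142b had 122527 and 194599 opposite-strand counts, against 1 and 4 on its own strand, at the position of the leukocyte gene Mir142 (chromosome 11, 87756864 to 87756927). Opposite Mir486 there were 234 and 422 counts, and opposite Mir126a 37 and 76.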

How the results depend on the processing

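With counts from both strands the share of counts held by the 7 genes moved from 2.45% to 2.20%, since the total grew while their own counts stayed the same. Leaving out each library in turn gave shares of 2.40% to 2.50%, log2 ratios of 5.94 to 6.00 for Mir143 to Mir145a and of 6.31 to 6.77 for Mir214 to Mir199a-2, and 6 genes detected each time. At least 1 count in each library gave 7 genes detected and at least 50 counts gave 5. The difference of Mir145a between the libraries, which was not called, turned from -0.025 to 0.0057 with TMM and to 0.0023 with DESeq2 size factors. The number of the 7 genes called ran from 2 to 4. It was 2 with TMM and with DESeq2 scaling, which called 135 and 136 of all 711 genes tested. It was 4 when only the 367 detected genes were tested, of which 150 were called. Levels per base of hairpin gave the same order of the 7 genes, and so did each library alone, an order that no scaling of whole libraries can change. The farthest shift of a detected gene was 1.33-fold, per base of hairpin. For Mir199a-1 on 7 and 4 counts, replicate 2 alone moved the level by 1.94-fold, to 0.933 CPM. No paired analysis was possible because only 1 group exists. Depth limits Mir199a-1 and Mir199a-2, and unassigned reads limit all 3 miR-199 genes.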
